A study of Mus musculus with 18 samples.

Results

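The effect of anti-PD-1 that was shared by cryoablation, radiofrequency ablation and cryo-thermal therapy was described in side tumours of mice, which were left untreated while another tumour was ablated. The 9 tumours with anti-PD-1 were set against the 9 without, with the kind of ablation as a block, for the 12587 of 26538 genes whose mean FPKM (fragments per kilobase of transcript, scaled to sequencing depth) was at least 0.5. Values were compared as log2(FPKM + 1). A gene counted as shared when its mean difference had the same sign within all 3 ablations and its overall difference passed limma at an adjusted p under 0.05 (Benjamini-Hochberg over all genes tested). This held for 1071 genes, 575 higher and 496 lower with anti-PD-1, which is 4.57% and 3.94% of the genes tested and 8.51% together. Without the condition on sign, 586 genes (4.66%) were higher and 500 (3.97%) lower.

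PD-1, encoded by Pdcd1, is an inhibitory receptor that appears on T cells after activation. Its ligands PD-L1 (Cd274) and PD-L2 (Pdcd1lg2) are carried by tumour cells and myeloid cells and are induced by interferon gamma. Antibodies that block PD-1 restore cytokine release and killing by T cells, and their action in a tumour depends on the T cells already present there.

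The 18 tumours formed 6 groups of 3: combined cryoablation and anti-PD-1 with cryoablation as its counterpart, combined radiofrequency ablation and anti-PD-1 with radiofrequency ablation, and combined cryo-thermal and anti-PD-1 with cryo-thermal therapy. Cryoablation freezes tissue, radiofrequency ablation heats it by alternating current, and cryo-thermal therapy applies freezing and radiofrequency heating. Every group had an ablation, so the comparison shows what anti-PD-1 added to ablation; animals with anti-PD-1 and no ablation were not analysed here. The labels give total RNA of tumour tissue and name no tumour line, mouse strain, age, antibody clone, antibody dose, day of collection or control antibody. Nothing in them shows that a group's 3 tumours grew in different animals. The p-values therefore reflect only how much these samples vary, part of which may be technical variation. Of 12 epithelial and mammary carcinoma genes and 8 melanocyte genes, 6 and 7 had a mean under 0.1 FPKM, so no cell of origin is named.

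The FPKM steps of low genes gave relative depths of 0.983 to 1.019, and 5995 to 7191 genes were at 0 per tumour. Depths were sought only near that of 1 tumour taken as reference, so a large difference could not have shown. RNA of normal tissues differed between tumours. Hair follicle genes stood high in 3 tumours with anti-PD-1, cryoablation replicates 1 and 2 and cryo-thermal replicate 1, with summed levels of 36.3, 40.3 and 32.4 FPKM, against 2.42 to 9.90 in the other 6 tumours with anti-PD-1 and 2.14 to 9.57 in the 9 without. Keratinocyte genes summed to 50.9 to 501 FPKM with anti-PD-1 and 51.7 to 221 without, and skeletal muscle genes to 52.8 to 158 with and 37.6 to 136 without. Erythroid genes summed to 46.0 to 317 FPKM with anti-PD-1 and 23.6 to 994 without. No gene of these lists was at 0 in all 18 tumours. List medians of the difference are given for cryoablation, radiofrequency ablation and cryo-thermal therapy in turn. They were 1.25, 0.39 and 1.14 for keratinocyte and 1.57, 0.12 and 0.85 for hair follicle genes. For muscle genes they were 0.95, 1.57 and -0.25, and for erythroid genes -3.22, -1.57 and 1.11. Of 9 tested keratinocyte and 7 hair follicle genes, 6 each had a positive sign within all 3 ablations, beside 21.1% of all genes tested. In bulk samples, fewer cells of a type and less RNA per cell cannot be told apart.

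**Figure D1:**
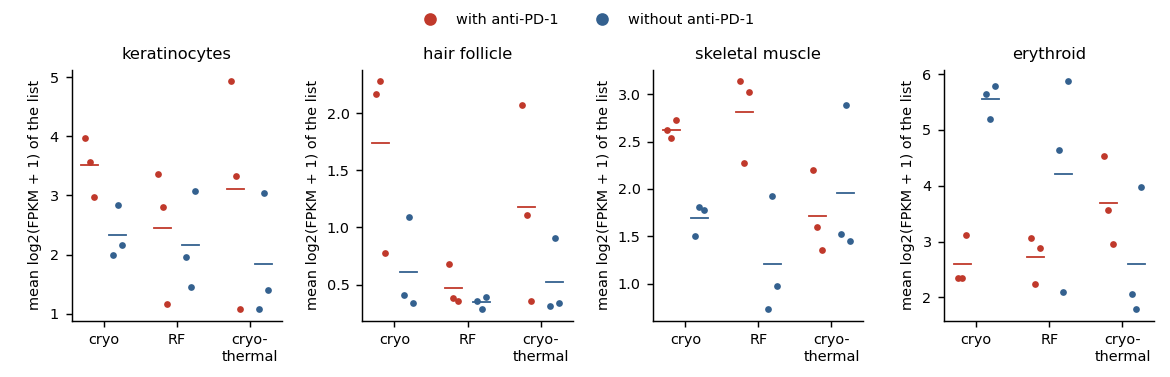
Mean log2(FPKM + 1) of 4 lists of normal tissue genes in each tumour, with anti-PD-1 (red) left of its counterpart without (blue) for cryoablation (cryo), radiofrequency ablation (RF) and cryo-thermal therapy; points are tumours and lines are means of 3. By list median, muscle genes lay higher and erythroid genes lower with anti-PD-1 after cryoablation and radiofrequency ablation, and both reversed after cryo-thermal therapy. In hair follicle genes 3 tumours with anti-PD-1 stood out.

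These levels moved with the comparison, though muscle and erythroid medians reversed within cryo-thermal therapy. The counts were therefore repeated with the tissue levels taken into account in 4 ways, called tissue settings here. With the hair follicle and keratinocyte level as a covariate 401 genes passed, without the 3 hair-rich tumours 380, with the erythroid level 198 and with the skeletal muscle level 102, against 1086 in all. The muscle setting was added after the data were seen, and leaving out the 3 tumours leaves 1 cryoablation tumour with anti-PD-1, which is then assumed to vary like the others. Of the genes picked by the rules given under processing, 120 passed, and not all of these are described in the text. With any of the 18 tumours left out 86 of the 120 still passed, and 30 of these passed in all 4 tissue settings as well. Those 30 include the 12 genes with the smallest p on the higher side and 10 of the 12 on the lower side. Without the cryoablation tumours 0 of the 120 passed. A call could end with a larger or a smaller difference than before. With the muscle level, Ifng had 0.65 against 0.60 without it, and Tnc 1.09 against 1.03. Csrp3 had 0.45 against 1.01, and Cd2 0.58 against 0.77. For calls that ended in a tissue setting, the part of normal tissue RNA was not tested further.

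Most shared changes were small. Over the 1071 genes the median size of the difference was 0.25 on the log2(FPKM + 1) scale, and 11 genes rose and 4 fell by more than 2-fold. The differences were largest within cryoablation for 576 of the 1071, within radiofrequency ablation for 266 and within cryo-thermal therapy for 229. In 78 of the 575 higher genes and 62 of the 496 lower genes, the 3 tumours with anti-PD-1 did not overlap the 3 without in any ablation. Over all genes tested this held for 0.636% and 0.493%. The shared genes were chosen by sign and p from the same values, which partly fixes their larger share, so it adds no support. Of all 12587 genes, 42.2% had the same sign within all 3 ablations without regard to a test. An unadjusted limma p under 0.05 was held by 3434 of the 12587, in either direction, a share to set beside such counts for lists below. Another 15 genes passed overall with a mean of opposite sign in 1 ablation, among them Asns (asparagine synthetase), at 0.87 within cryoablation, 0.49 within radiofrequency ablation and -0.03 within cryo-thermal therapy. The call of Asns ended with any of 10 tumours left out (limma adjusted p up to 0.0672, with 0.00727 to 0.414 over all alternatives).

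**Figure D2:**
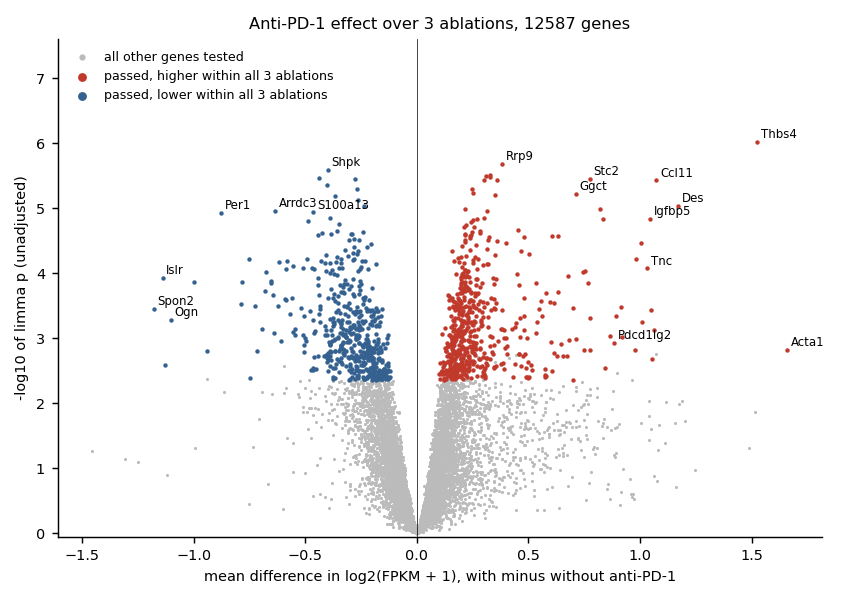
Mean difference in log2(FPKM + 1) with minus without anti-PD-1 over the 3 ablations (x axis) against -log10 of the unadjusted limma p (y axis) for 12587 genes. Red and blue points are the 575 higher and 496 lower genes that passed at an adjusted p under 0.05 with the same sign within all 3 ablations; most lie within 1 log2 unit of 0.

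Taken within each ablation, 3 tumours against 3, limma passed 225 genes higher (1.79%) and 318 lower (2.53%) after cryoablation. It passed 4 higher (0.0318%) and 2 lower (0.0159%) after radiofrequency ablation, and 31 higher (0.246%) and 16 lower (0.127%) after cryo-thermal therapy. These sum to 543 (4.31%), 6 (0.0477%) and 47 genes (0.373%). The 543 were 7 without cryoablation plus anti-PD-1 replicate 1, 205 without its replicate 3 and 339 without its replicate 2, 0 without cryoablation replicate 1, 20 without its replicate 3, 323 without cryo-thermal plus anti-PD-1 replicate 2 and 895 without cryo-thermal replicate 3. The 47 were 2 and 12 without cryo-thermal plus anti-PD-1 replicates 2 and 3, and 80, 10 and 22 without cryo-thermal replicates 1, 2 and 3. The groups did not overlap for 13.6% of all genes on the higher and 18% on the lower side after cryoablation, 7.66% and 7.19% after radiofrequency ablation, and 10.6% and 9.2% after cryo-thermal therapy. A test of whether the effect differed among ablations passed 3 genes (0.0238%), and 0 to 24 with each tumour left out in turn. At an unadjusted p under 0.05 there were 1387, and 107 of the 1071 shared genes were at such a p. The count that passed also moved with the fit, as given in the last section. Against the overall count of 1086, 0 genes passed limma without the cryoablation tumours, where 2056 had an unadjusted p under 0.05, while 259 passed without the radiofrequency tumours and 883 without the cryo-thermal tumours. Leaving out cryo-thermal replicate 3 gave 555 genes and leaving out cryo-thermal replicate 1 gave 1665. The count was 606 without cryoablation replicate 1, 687 without its replicate 2 and 715 without radiofrequency replicate 3, all of them tumours without anti-PD-1, and 674 without cryoablation plus anti-PD-1 replicate 1.

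Of the 12 genes with the smallest p on the higher side, 5 are known from the nucleolus: Rrp9, Ddx21, Nolc1, Tcof1 and Aen. No list of nucleolar genes was tested, so the share of such genes among all genes tested is not known. The count of 5 describes these genes only. Rrp9 (NCBI gene 27966), a protein of the U3 particle that cuts precursor ribosomal RNA, measured a lowest, median and highest level of 24.98, 29.8 and 33.5 FPKM with anti-PD-1, against 18.4, 21.3 and 27.6 FPKM without. Within each ablation its 3 tumours with anti-PD-1 lay above the 3 without. Its log2 difference was 0.38 (SE 0.05, limma adjusted p = 0.00385), with 0.48, 0.34 and 0.32 within cryoablation, radiofrequency ablation and cryo-thermal therapy.

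Ddx21 (56200), an RNA helicase of the nucleolus, had 38.2, 42.0 and 45.4 FPKM with anti-PD-1 against 29.4, 33.9 and 38.7 FPKM without (log2 difference 0.31, SE 0.05, limma adjusted p = 0.00385). In 8 of 9 tumours with anti-PD-1 it was above every tumour without. Nolc1 (70769), a phosphoprotein that shuttles to the nucleolus, rose by 0.30, and Tcof1 (21453), treacle, which supports transcription of ribosomal DNA, by 0.36. Aen (68048), a nuclease induced by p53 that locates to the nucleolus, had 5.19, 6.28 and 6.76 FPKM with anti-PD-1 against 3.54, 4.59 and 5.77 FPKM without, a difference of 0.33 (SE 0.05, limma adjusted p = 0.00385) with no overlap within any ablation. These 5 genes kept their call in all 4 tissue settings and with any tumour left out. They lost it without the cryoablation tumours, as every named gene did. Over all alternatives their limma adjusted p ran from 0.0025 to 0.126.

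Other genes of ribosome assembly, picked after their values were seen, rose as well. Nop2 (110109), a methyltransferase of ribosomal RNA, had 31.6, 35.8 and 42.1 FPKM with anti-PD-1 against 26.1, 31.3 and 33.4 FPKM without (0.26, SE 0.04, limma adjusted p = 0.00588) and kept its call in all 4 tissue settings. Fbl, fibrillarin, which methylates ribosomal RNA, rose by 0.25, and Utp4, of the small subunit processome, by 0.27; both kept their call in 3 of the 4. In the deposited annotation 71 tested genes belong to ribosome biogenesis. Of these 18 were shared higher (25.4%, beside 4.57% of all genes tested) and 1, Sbds, lower. The same positive sign within all 3 ablations was held by 43, beside 21.1% of all genes tested. The median of the 71 was 0.10, beside 0.00 over all genes. The 18 became 7 without the 3 hair-rich tumours, 6 with the hair follicle and keratinocyte level, 4 with the erythroid level, 2 with the muscle level and 10 without cryo-thermal replicate 3. Of 20 listed genes for proteins of the ribosome itself 0 passed limma, 1 higher and 1 lower had an unadjusted p under 0.05, and the median was -0.02. At most 1 passed in either direction when a tumour was left out: 1 higher without cryoablation or radiofrequency plus anti-PD-1 replicate 2 or cryo-thermal replicates 1 or 2, and 1 lower without radiofrequency plus anti-PD-1 replicate 3. The pathways named here were picked for their counts in these data, so the counts describe and do not test them.

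Nop2, Aen and Per1 carry the letters CACGTG, the E-box that proteins of the MYC family and clock proteins can bind, in the 250 bases before their RefSeq start in GRCm38.p6. They are printed 5′ to 3′ with the E-box in capitals, to show where it lies in a ribosome gene, a nuclease gene and a clock gene: Nop2 at chr6:125131633-125131882, Aen at chr7:78895808-78896057 and Per1 at chr11:69098699-69098948, all on the plus strand.
Nop2: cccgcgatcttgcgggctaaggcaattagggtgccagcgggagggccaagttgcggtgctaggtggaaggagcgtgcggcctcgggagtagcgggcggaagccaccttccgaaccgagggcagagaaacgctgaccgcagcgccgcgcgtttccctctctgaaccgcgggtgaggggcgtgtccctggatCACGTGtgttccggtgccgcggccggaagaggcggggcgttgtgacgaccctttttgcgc
Aen: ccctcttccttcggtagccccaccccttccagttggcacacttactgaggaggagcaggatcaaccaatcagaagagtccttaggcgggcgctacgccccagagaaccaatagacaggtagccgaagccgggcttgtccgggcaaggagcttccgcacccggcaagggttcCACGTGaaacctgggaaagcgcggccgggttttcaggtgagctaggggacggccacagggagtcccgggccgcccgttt
Per1: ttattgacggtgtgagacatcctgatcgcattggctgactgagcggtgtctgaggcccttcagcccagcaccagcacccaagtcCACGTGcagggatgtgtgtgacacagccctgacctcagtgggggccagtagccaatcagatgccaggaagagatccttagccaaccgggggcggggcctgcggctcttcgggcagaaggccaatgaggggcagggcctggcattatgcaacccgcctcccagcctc
The E-box begins 60 bases before the start in Nop2, 79 in Aen and 166 in Per1. Read on both strands, CACGTG was in 12.1% of 437 shared higher genes with a listed promoter, 9.45% of 402 shared lower genes, 9.68% of 10050 tested genes and 6.02% of the 32851 promoters of the table. Another 3 motifs, none of which overlaps it, were sought in the same windows. TGATGCAA, bound by C/EBP and ATF proteins, was in 7 of the higher (1.60%), 1 of the lower (0.249%) and 67 of the tested genes (0.667%). The interferon-stimulated response element was in 11 (2.52%), 11 (2.74%) and 334 (3.32%) of the same sets. GTAAACA, the forkhead motif, was in 7 (1.60%), 17 (4.23%) and 276 (2.75%). A match is a description of the letters and no measure of binding.

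**Figure D3:**
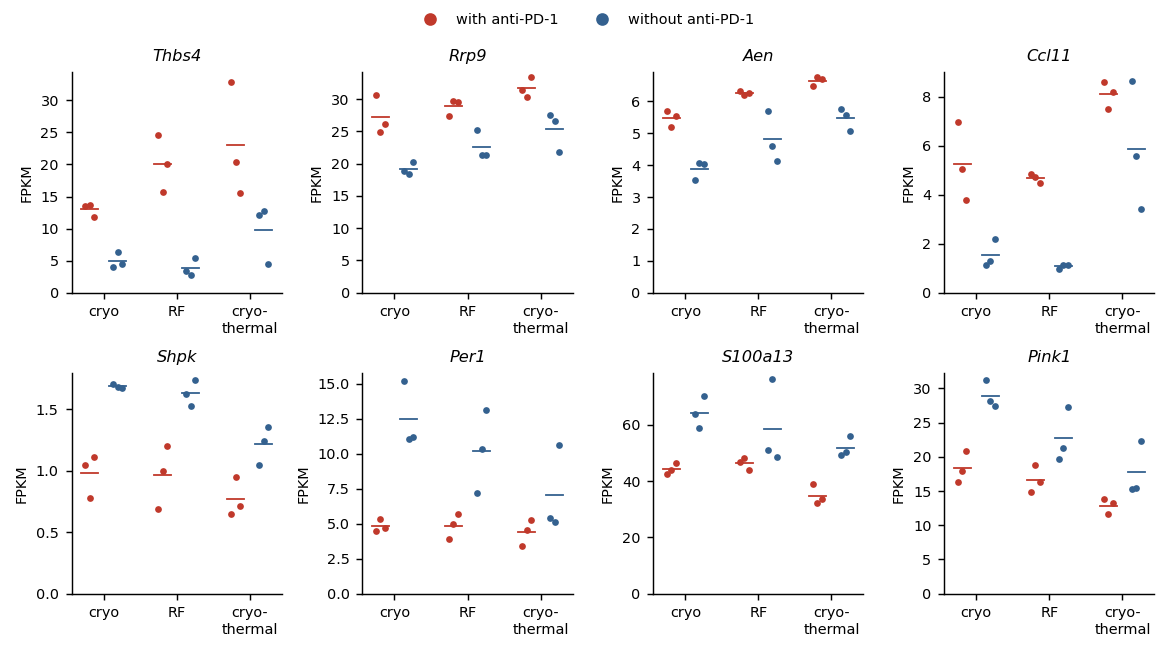
FPKM of 8 shared genes in every tumour, with anti-PD-1 (red) left of its counterpart without (blue) for cryoablation (cryo), radiofrequency ablation (RF) and cryo-thermal therapy; points are tumours, lines are means of 3 and axes start at 0. Thbs4, Rrp9 and Aen lay higher and Shpk, S100a13 and Pink1 lower in every ablation without overlap, while Ccl11 and Per1 overlapped within cryo-thermal therapy.

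Secreted and matrix proteins were among the largest changes upward. Thbs4 (21828), thrombospondin 4 of the extracellular matrix, had the smallest p of all genes. It measured 13.0 ± 1.03 FPKM (SD, n = 3) with anti-PD-1 and 5.00 ± 1.22 without after cryoablation, 20.1 ± 4.41 and 3.86 ± 1.403 after radiofrequency ablation, and 22.95 ± 8.97 and 9.80 ± 4.65 after cryo-thermal therapy. In 8 of 9 tumours with anti-PD-1 it exceeded every tumour without. Its log2 difference was 1.53 (SE 0.21, limma adjusted p = 0.00385). Stc2 (20856), stanniocalcin 2, a secreted glycoprotein, had 2.94, 4.17 and 6.00 FPKM with anti-PD-1 against 0.824, 2.28 and 3.84 FPKM without, a difference of 0.77, without overlap within any ablation.

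Ccl11 (20292), eotaxin, which draws eosinophils, measured 3.77, 5.05 and 8.62 FPKM with anti-PD-1 against 0.967, 1.28 and 8.63 FPKM without. The highest value belonged to a cryo-thermal tumour without anti-PD-1. Its log2 difference was 1.07 (SE 0.16, limma adjusted p = 0.00385), with 1.29 within cryoablation, 1.45 within radiofrequency ablation and 0.48 within cryo-thermal therapy. Cxcl14, another chemokine, rose by 0.98, and Igfbp5, a binding protein of insulin-like growth factors, by 1.04 (each kept in 3 of 4 tissue settings). Tnc, tenascin C of wound and tumour matrix, rose by 1.03 (kept in 2 of 4), with 42.4 FPKM as the median with anti-PD-1 and 20.8 FPKM without. Cdh1, E-cadherin, which joins epithelial cells, rose by 0.48 and kept its call in all 4.

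Some muscle genes were on the higher side. Des (13346), desmin, the intermediate filament of muscle, measured 3.36, 5.83 and 7.94 FPKM with anti-PD-1 against 0.466, 2.25 and 3.27 FPKM without, so that the 9 tumours with anti-PD-1 all lay above the 9 without. It rose by 1.17 (SE 0.19, limma adjusted p = 0.00522) and kept its call with the muscle level as a covariate, at 0.76. Myoglobin (Mb), which stores oxygen in muscle, rose by 0.89, and Csrp3, a protein of the muscle Z-disc, by 1.01. Both lost their call in all 4 tissue settings. Mb belongs to the list that gave the muscle level, so its smaller difference in that setting, 0.38, was partly fixed in advance. Of 13 skeletal muscle genes tested 2 passed, Mb and Acta1. This count was 10 without cryo-thermal replicate 2 and 1 when any of 7 other tumours was left out. A positive sign within all 3 ablations was held by 3 of the 13, beside 21.1% of all genes tested. The list median was 0.95 within cryoablation, 1.57 within radiofrequency ablation and -0.25 within cryo-thermal therapy.

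Enzymes that handle amino acids, one-carbon units and redox state formed another higher group. Txnrd1 (50493), the cytosolic thioredoxin reductase, had 37.1, 42.8 and 47.5 FPKM with anti-PD-1 against 29.4, 34.0 and 37.5 FPKM without (0.33, SE 0.05, limma adjusted p = 0.00385). Ggct (110175), which acts in glutathione turnover, had 14.5, 22.2 and 36.9 FPKM with anti-PD-1 against 11.6, 13.4 and 22.5 FPKM without (0.71, SE 0.11, limma adjusted p = 0.00430). Slc38a1, a glutamine transporter, rose by 0.35 and Ass1, argininosuccinate synthase, by 1.00. All 4 kept their call in the 4 tissue settings, and Txnrd1, Slc38a1 and Ass1 did not overlap within any ablation.

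Slc7a11, the cystine transporter, rose by 0.77, with 1.65, 2.00 and 4.53 FPKM with anti-PD-1 against 0.379, 0.721 and 2.62 FPKM without. Slc7a5, a transporter of large neutral amino acids, rose by 0.46 (both kept in 2 of 4 tissue settings). The mitochondrial folate enzymes Shmt2 and Mthfd2 rose by 0.45 and 0.58, kept in 3 and 2 of the 4. Of 18 tested genes of the one-carbon pool by folate, 7 were shared higher (38.9%, beside 4.57% of all genes tested) and 0 lower. The 7 were 4 without cryo-thermal replicate 3. These were 5 without the hair-rich tumours, 5 with the hair follicle and keratinocyte level, 1 with the erythroid level and 0 with the muscle level.

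Genes of protein making and breakdown were also on the higher side. Over all genes tested 4.57% were shared higher and 3.94% lower. Of 44 tested genes of aminoacyl-tRNA biosynthesis 12 were shared higher (27.3%) and 0 lower, led by the synthetases Gars for glycine (0.32) and Wars1 for tryptophan (0.46), each kept in 3 of 4 tissue settings. The 12 became 7 without the hair-rich tumours, 8 with the hair follicle and keratinocyte level, 2 with the erythroid level and 0 with the muscle level. It was 6 without cryoablation replicate 1, its replicate 2 or cryo-thermal replicate 3, and 7 without radiofrequency replicate 3 or cryoablation plus anti-PD-1 replicates 1 or 3. Of 45 proteasome genes 10 were shared higher (22.2%) and 0 lower, Ifng being 1 of them in that annotation, with 8 to 11 when any tumour was left out and 4, 4, 3 and 1 in the tissue settings without hair-rich tumours and with hair, erythroid and muscle levels. Psme3, an activator of the proteasome, rose by 0.27, with 39.0, 42.0 and 46.3 FPKM with anti-PD-1 against 30.4, 34.3 and 39.9 FPKM without, and kept its call in all 4. Oxidative phosphorylation had 1 of 17 listed genes higher, Uqcrq of complex III at 0.34 (2 without cryo-thermal replicate 1), and a median of 0.00.

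On the lower side Shpk (74637), a kinase of the sugar sedoheptulose, led by p. It measured 0.645, 0.951 and 1.20 FPKM with anti-PD-1 against 1.05, 1.62 and 1.74 FPKM without, and 7 of 9 tumours with anti-PD-1 lay below every tumour without. Its log2 difference was -0.40 (SE 0.06, limma adjusted p = 0.00385), with -0.44, -0.43 and -0.33 within cryoablation, radiofrequency ablation and cryo-thermal therapy.

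S100a13 (20196), a calcium-binding protein that aids the release of growth factors, had 32.1, 44.0 and 48.4 FPKM with anti-PD-1 against 48.5, 55.9 and 76.3 FPKM without. Ctps2 (55936), which makes CTP, had 5.77, 6.22 and 6.71 FPKM with anti-PD-1 against 6.78, 7.65 and 8.83 FPKM without. In both genes all 9 tumours with anti-PD-1 lay below all 9 without, with log2 differences of -0.46 (SE 0.08, limma adjusted p = 0.00530) and -0.26 (SE 0.04, limma adjusted p = 0.00473). Itgbl1, an integrin-like secreted protein, fell by 0.44, Trib2, a pseudokinase, by 0.40, and Snapin, which acts in vesicle fusion and lysosome transport, by 0.28. Stard9, a kinesin, fell by 0.37, Ctso, the protease cathepsin O, by 0.39, Dnase1l1, a DNase-like enzyme, by 0.24, and Pmp22, a membrane protein of myelin, by 0.35. All of these kept their call in the 4 tissue settings.

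Among clock output genes Per1 and Per3 were lower. Per1 (18626), a repressor of the circadian clock, measured 4.85 ± 0.457 FPKM with anti-PD-1 and 12.5 ± 2.34 without after cryoablation, 4.85 ± 0.904 and 10.2 ± 2.97 after radiofrequency ablation, and 4.41 ± 0.918 and 7.06 ± 3.11 after cryo-thermal therapy (SD, n = 3 each). The groups overlapped after cryo-thermal therapy and in no other ablation. Its log2 difference was -0.88 (SE 0.14, limma adjusted p = 0.00530), and its call ended with the muscle level (limma adjusted p = 0.0529, with 0.00293 to 0.142 over all alternatives). Per3, its relative, fell by 0.26 and kept its call in 1 of 4 tissue settings. Of 12 clock output genes these 2 passed, both lower, and 4 without cryo-thermal replicate 2. A negative sign within all 3 ablations was held by 4 of the 12, and the list median was 0.05, -0.37 and -0.12 within cryoablation, radiofrequency ablation and cryo-thermal therapy.

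Several single genes that restrain growth signalling, all but Arrdc3 picked after their values were seen, fell. Arrdc3 (105171), an arrestin-like protein that turns over receptors, had 7.85, 10.4 and 17.7 FPKM with anti-PD-1 against 10.6, 16.6 and 22.99 FPKM without (-0.63, SE 0.10, limma adjusted p = 0.00530) and kept its call in the 4 tissue settings. Ddit4, which restrains mTORC1, had 26.4, 33.5 and 49.1 FPKM with anti-PD-1 against 28.4, 59.2 and 84.9 FPKM without and fell by 0.75. Sesn1, a stress protein that also restrains mTORC1, fell by 0.58; both kept their call in 3 of 4. Txnip, an inhibitor of thioredoxin and of glucose uptake, fell by 0.65, Mxd4, a partner of MAX that opposes MYC, by 0.56, and Pik3ip1, an inhibitor of PI3 kinase, by 0.52. Of these 3, Mxd4 kept its call in 1 tissue setting and the others in 0. Myc itself had a log2 difference of 0.17 (SE 0.07, limma adjusted p = 0.108) and did not pass.

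Some genes of mitochondrial clearance and fat oxidation were lower. Pink1 (68943), the kinase that marks damaged mitochondria, had 11.6, 16.3 and 20.9 FPKM with anti-PD-1 against 15.3, 22.4 and 31.3 FPKM without, and the groups did not overlap within any ablation. It fell by 0.49 (SE 0.08, limma adjusted p = 0.00557) and kept its call in 3 of 4 tissue settings. Bnip3l, a receptor that brings mitochondria to autophagosomes, fell by 0.26 (kept in 2). Of 65 tested mitophagy genes 9 were shared lower (13.8%) and 2 higher; the 9 became 6 without the hair-rich tumours, 4 with hair, 2 with erythroid and 0 with muscle levels. The count was 5 without cryoablation replicate 1, radiofrequency replicate 3, cryoablation plus anti-PD-1 replicate 1 or cryo-thermal plus anti-PD-1 replicate 2. It was 4 without cryo-thermal replicate 3 or radiofrequency plus anti-PD-1 replicate 1. Over all genes tested 3.94% were shared lower and 4.57% higher. Acadvl and Acadm, dehydrogenases of fatty acid oxidation, fell by 0.23 and 0.18, and Cpt1a, which brings fatty acids into mitochondria, by 0.41, kept in 1, 2 and 0 tissue settings. Of 34 tested genes of fatty acid degradation 5 were shared lower (14.7%) and 2 higher (5.88%), with a median of -0.05. The higher share was near the 4.57% of all genes tested. The 5 were 3 when any of 6 tumours was left out: cryoablation plus anti-PD-1 replicate 1, cryoablation replicates 1, 2 and 3, radiofrequency replicate 3 or cryo-thermal replicate 3. They were 0 without the hair-rich tumours and 2, 0 and 1 with the hair, erythroid and muscle levels, and the 2 higher genes were 0, 0, 1 and 1 in those settings.

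**Figure D4:**
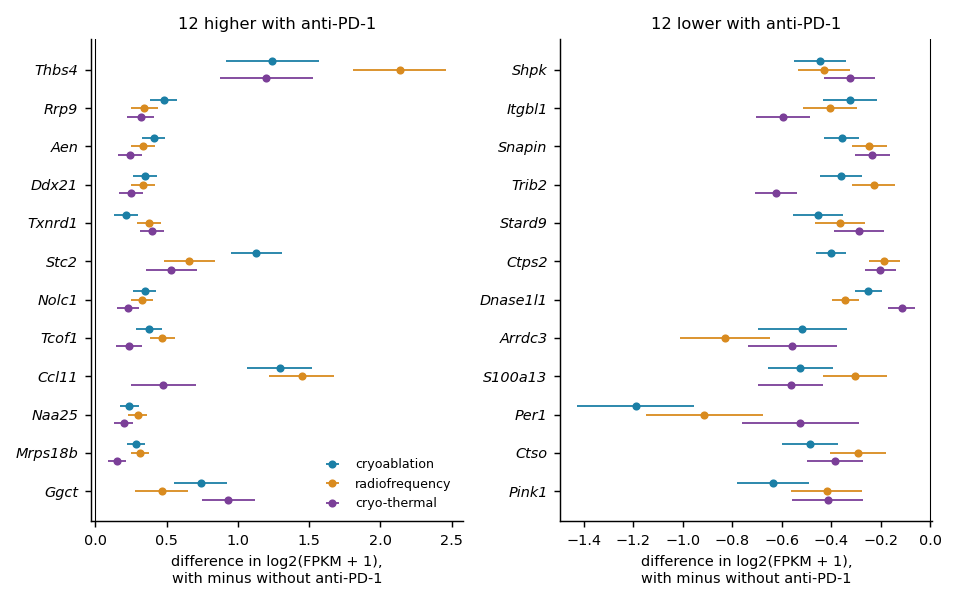
Difference in log2(FPKM + 1), with minus without anti-PD-1, within cryoablation, radiofrequency ablation and cryo-thermal therapy for the 12 genes with the smallest overall p in each direction. Points are differences of means of 3 against 3 tumours and bars are limma standard errors; the sign is the same within all 3 ablations by the way the genes were chosen.

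Genes of fibroblasts and matrix moved both ways. Islr, a secreted protein of mesenchymal cells, had 1.54, 2.83 and 6.11 FPKM with anti-PD-1 against 3.41, 8.88 and 12.8 FPKM without, and 8 of 9 tumours with anti-PD-1 lay below every tumour without. It fell by 1.14 (SE 0.23, limma adjusted p = 0.00943). Ogn, the proteoglycan osteoglycin, fell by 1.10; both kept their call in 2 of 4 tissue settings. Spon2, a matrix protein, fell by 1.18 and Pdgfrb, a growth factor receptor of pericytes and fibroblasts, by 0.47, kept in 0. Of 18 listed fibroblast and matrix genes 1 was shared higher, Timp1, an inhibitor of metalloproteinases, and 3 lower, Pdgfrb, Pdgfra and Col3a1, with a median of -0.01 and summed levels of 1801 to 3261 FPKM with anti-PD-1 and 1937 to 4003 without. Timp1 lost its call when any of 5 tumours was left out (limma adjusted p up to 0.0566, with 0.00451 to 0.237 over all alternatives) and in 3 of 4 tissue settings. The 1 higher gene became 3 without cryo-thermal replicate 1, 2 without cryo-thermal plus anti-PD-1 replicate 3, and 0 without cryoablation replicates 1 or 2, radiofrequency replicate 3, cryo-thermal replicate 3 or cryoablation plus anti-PD-1 replicate 3. The 3 lower genes were 7 without cryo-thermal replicate 1 and 5 without its replicate 2 or radiofrequency plus anti-PD-1 replicate 2. They were 1 without cryoablation replicates 1 or 3, radiofrequency replicate 3, cryo-thermal replicate 3 or cryoablation plus anti-PD-1 replicate 1.

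T cell genes lay on the higher side within every ablation. All 12 tested genes of the T cell receptor complex and its co-receptors had the same positive sign within all 3 ablations, where 21.1% of all genes did, and 3 passed limma. Their median was 0.45, with 0.60, 0.33 and 0.46 within cryoablation, radiofrequency ablation and cryo-thermal therapy. The summed level had a lowest, median and highest value of 7.12, 21.7 and 51.7 FPKM with anti-PD-1 against 3.31, 8.66 and 50.3 FPKM without, so the groups overlapped.

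Cd4 (12504), the co-receptor of helper T cells, measured 0.557, 1.39 and 1.81 FPKM with anti-PD-1 against 0.0978, 0.370 and 1.81 FPKM without (0.55, SE 0.12, limma adjusted p = 0.0145). Cd2, an adhesion molecule of T and NK cells, rose by 0.77 (limma adjusted p = 0.0170), and Cd6, a T cell surface receptor, by 0.40 (limma adjusted p = 0.0272). All 3 lost their call in the 4 tissue settings. Cd6 lost it also without cryo-thermal replicate 3 (limma adjusted p = 0.0551), with 0.00928 to 0.150 over all alternatives. The count of 3 was 8 without cryo-thermal replicate 1 and 5 without radiofrequency plus anti-PD-1 replicate 2. Cd8a, of cytotoxic T cells, had 0.49 (SE 0.20, limma adjusted p = 0.120) and did not pass.

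Of 9 tested genes of the PD-1 axis and co-stimulation the ligand PD-L2 was the 1 that passed. The count was 3 without cryo-thermal replicate 1, 2 without radiofrequency replicate 2 or radiofrequency plus anti-PD-1 replicate 2, and 0 without cryo-thermal replicate 3. Pdcd1lg2 (58205) measured 0.310, 1.02 and 7.21 FPKM with anti-PD-1 against 0.0536, 0.198 and 1.72 FPKM without, with overlap. Its log2 difference was 0.88 (SE 0.23, limma adjusted p = 0.0255), with 0.42, 0.71 and 1.51 within cryoablation, radiofrequency ablation and cryo-thermal therapy. It kept its call in 2 of 4 tissue settings and lost it without cryo-thermal replicate 3 (limma adjusted p = 0.0566), with 0.0122 to 0.142 over all alternatives.

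The target of the antibody, Pdcd1 (18566), had 0.520, 1.55 and 3.94 FPKM with anti-PD-1 against 0.135, 0.541 and 3.89 FPKM without, a difference of 0.48 that did not pass (SE 0.16, limma adjusted p = 0.0604). Cd274, PD-L1, had 0.50 (limma adjusted p = 0.122). Ctla4, an inhibitory receptor of activated and regulatory T cells, rose by 0.71 (limma adjusted p = 0.0239). It lost its call without cryoablation replicate 1 (limma adjusted p = 0.0505) or cryo-thermal replicate 3 (limma adjusted p = 0.0539), with 0.00658 to 0.227 over all alternatives. Il2ra, the high-affinity chain of the IL-2 receptor, rose by 0.33 without overlap within any ablation; both kept their call in 1 of 4 tissue settings.

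Interferon gamma passed, and its targets lay higher but missed the test with all 18 tumours. Ifng (15978) measured 0.0858, 0.870 and 3.66 FPKM with anti-PD-1 against 0, 0.300 and 2.19 FPKM without and rose by 0.60 (SE 0.15, limma adjusted p = 0.0250), a call that ended in all 4 tissue settings. Of 19 tested interferon gamma response genes 17 had the same positive sign within all 3 ablations, with a median of 0.65. An unadjusted p under 0.05 was held by 17, beside 3434 of all 12587 genes tested, in either direction. At an adjusted p under 0.05, 0 passed limma. The count was 4 without radiofrequency plus anti-PD-1 replicate 2 and 2 without radiofrequency replicate 2. Iigp1, an interferon-induced GTPase, had 1.12 (SE 0.38, limma adjusted p = 0.0733). MHC class II presentation had 7 of 8 genes with the same positive sign, a median of 0.51 and 0 past limma, with 6 at an unadjusted p under 0.05. Its count was 5 without radiofrequency replicate 2, and 1 without cryo-thermal replicate 1 or cryo-thermal plus anti-PD-1 replicate 1. H2-Ab1, a class II chain, had 0.81 (limma adjusted p = 0.0669, with 0.022 to 0.373 over all alternatives). Of 19 type I interferon response genes 1 had the same sign in all 3 ablations, and the median was 1.08, 0.29 and -0.33 within cryoablation, radiofrequency ablation and cryo-thermal therapy.

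Genes of killing mostly missed the test. Of 12 cytotoxic lymphocyte genes Ifng was the 1 that passed, 5 had the same positive sign in all ablations, and the median was 0.24. The count was 4 without cryo-thermal replicate 1 and 2 without replicate 2 of cryoablation or radiofrequency ablation plus anti-PD-1. Gzmb, a granzyme, had 0.31 (SE 0.26, limma adjusted p = 0.477), and of 6 NK cell genes 0 passed limma and 1 had an unadjusted p under 0.05. Ccl5, a chemokine that attracts T cells, had -0.17 (SE 0.22, limma adjusted p = 0.653), with -0.70, -0.09 and 0.29 within cryoablation, radiofrequency ablation and cryo-thermal therapy. It turned to 0.01 with the hair follicle and keratinocyte level, 0.10 without the cryoablation tumours and 0.03 without cryoablation replicate 1.

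Among myeloid genes 4 of 16 listed chemokines passed, all higher: Ccl11, Cxcl14, Ccl8 and Ccl24. Of these, Ccl8, which attracts monocytes, lost its call when any of 8 tumours was left out (limma adjusted p up to 0.0739, with 0.0041 to 0.347 over all alternatives). The count was 2 without cryoablation replicates 1 or 2 or cryo-thermal replicate 3. Cx3cr1 (13051), the fractalkine receptor of monocytes and resident macrophages, had 1.91, 3.22 and 7.30 FPKM with anti-PD-1 against 4.48, 5.82 and 10.4 FPKM without. In 7 of 9 tumours with anti-PD-1 it lay below every tumour without, and it fell by 0.78 (SE 0.16, limma adjusted p = 0.0101) and kept its call in the 4 tissue settings. Cx3cr1 came from the list of lymphocyte-attracting chemokines and receptors, of which it alone passed among 12 tested. In that list 5 genes had a positive sign within all 3 ablations and 1 a negative sign, and the median was 0.20. When a tumour was left out, 0 to 1 of its genes passed on the higher side. Clec7a, the receptor dectin-1 for fungal glucans on myeloid cells, rose by 1.05 and kept its call in 1. Of 16 macrophage and monocyte genes 0 had a positive sign and 5 a negative sign within all 3 ablations, and the 1 that passed was Mertk, a receptor for dying cells, at -0.50. Mertk lost its call without cryoablation replicate 1 (limma adjusted p = 0.0506) or cryo-thermal replicate 3 (limma adjusted p = 0.0551), with 0.0121 to 0.291 over all alternatives.

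**Figure D5:**
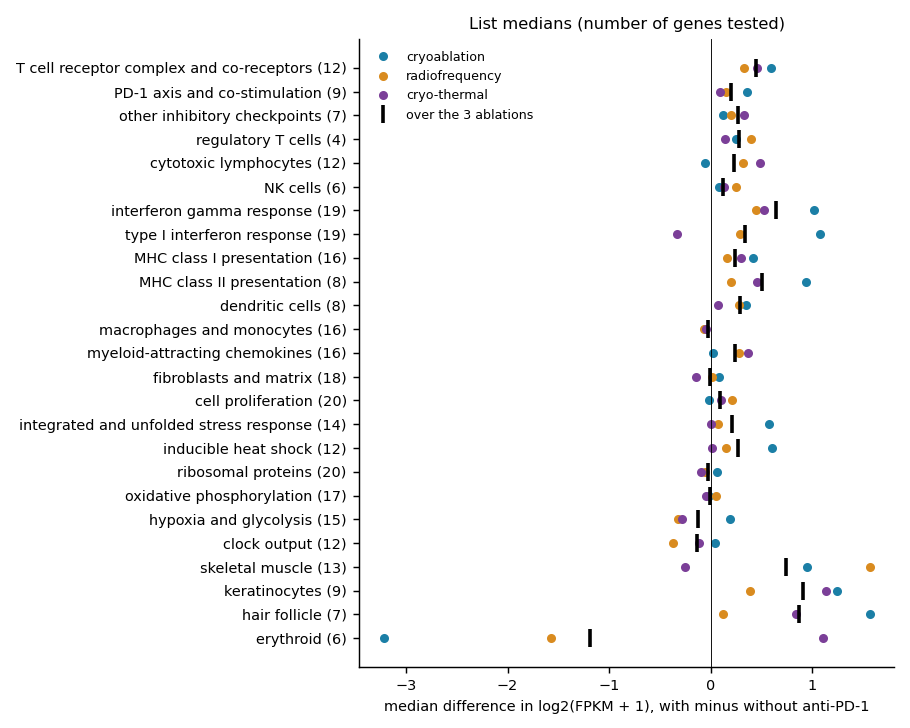
Median difference in log2(FPKM + 1), with minus without anti-PD-1, of the tested genes of 25 lists, within each ablation (coloured points) and over the 3 ablations (black ticks); the number of genes tested is given after each name. Lists whose medians lie above 0 in each ablation include T cell, interferon gamma response and MHC class II genes, and also keratinocyte and hair follicle genes. Type I interferon, muscle and erythroid medians change sign between ablations.

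Some chaperone genes were on the higher side. Of 12 inducible heat shock genes 3 were shared higher, beside 4.57% of all genes tested, and 6 had a positive sign within all 3 ablations. The medians were 0.60, 0.16 and 0.01 within cryoablation, radiofrequency ablation and cryo-thermal therapy. Hspa8, a chaperone of the cytosol, rose by 0.24, Hspd1, a chaperone of mitochondria, by 0.32 and Hsp90aa1 by 0.28. All 3 lost their call in the 4 tissue settings. Hsp90aa1 lost it also when any of 12 tumours was left out (limma adjusted p up to 0.0819, with 0.0141 to 0.436 over all alternatives). The 3 were 1 without cryo-thermal replicate 3 or cryo-thermal plus anti-PD-1 replicate 1, and 5 without cryo-thermal plus anti-PD-1 replicate 3. Hyou1, a chaperone of the endoplasmic reticulum, rose by 0.26 and was kept in 2. Of 13 endothelial genes 0 passed limma, 0 had an unadjusted p under 0.05 and 0 had the same sign within all 3 ablations, with a median of 0.05.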

How the data were processed

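The deposited table holds FPKM values that the authors made from total RNA of the tumours. Per the labels' protocols, TRIzol extraction was followed by column clean-up with DNase, and the libraries came from a VAHTS Universal V6 kit. Per the submitters' processing notes HTSeq 0.11.2 was used. The aligner, genome build, annotation and strand setting are not given in the sources used here. Values in FPKM carry no fragment counts, so count tests, counting intervals and limits of detection were not computed, and relative depth was read from the steps of low values. A log2 difference understates the change of genes near 1 FPKM, and genes with near-identical copies or overlapping neighbours may share fragments.

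limma 3.58.1 in R 4.3.3 was fitted to log2(FPKM + 1) of all 18 tumours with ablation and anti-PD-1 as terms (14 residual degrees of freedom, variances moderated with a trend on the mean), and with a mean per group for contrasts within an ablation and for the difference among ablations. Tests were 2-sided, and the fit was tested on simulated data. Members and lists were chosen with earlier results of these data known. Named genes were, per direction, the 12 of smallest p among those with 1 sign in all ablations, up to 3 per list of 37, up to 10 without overlap in each direction, those of the interaction test and 7 chosen genes of the PD-1 and CCL5 question. The genes named beyond that for size of change, pathway or promoter were chosen after their values were seen. Lists were matched by symbol or NCBI gene number, 503 of 506 entries. No 2 columns were identical, and correlations within groups (0.972 to 0.995) and between them (0.955 to 0.993) overlapped. Promoters came from the RefSeq table (10050 tested genes matched). Python 3.11.15, pandas 2.3.3, numpy 2.4.6 and matplotlib 3.10.9 were used.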

Additional observations from a re-analysis of the deposited data

Results flagged for a closer look

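The test of whether the anti-PD-1 effect differed among the ablations passed 3 genes. Cavin2, a coat protein of caveolae, had log2 differences of 0.07 within cryoablation, -0.14 within radiofrequency ablation and -1.35 within cryo-thermal therapy (limma adjusted p = 0.0305), with 5.75 ± 0.442 FPKM with anti-PD-1 and 16.2 ± 0.955 without after cryo-thermal therapy (SD, n = 3 each). Plxnb1, a receptor for semaphorins, had -0.42, -0.21 and 0.77 in the same order (limma adjusted p = 0.0305), with 1.58 ± 0.0555 FPKM with anti-PD-1 and 0.528 ± 0.220 without after cryo-thermal therapy. Rgs2, which shortens G protein signals, had 0.57, 0.07 and -0.48 (limma adjusted p = 0.0437). None of the 3 passed the overall test. The call of a difference ended for Cavin2 when any of 9 tumours was left out (limma adjusted p up to 0.170), for Plxnb1 with any of 11 (up to 0.170) and for Rgs2 with any of 12 (up to 0.182). Over all alternatives the adjusted p ran from 4.39e-05 to 0.827, 7.14e-05 to 0.772 and 0.000131 to 0.722.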

How the results depend on the processing

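The 1071 shared genes kept their sign under every alternative in which they were tested, 973 of them at a mean of at least 2 FPKM, which their choice by sign partly fixes; the cause of the moves below was not tested. Calls numbered 1086, against 1083 and 1069 with pseudocounts of 0.1 and 0.5, 1074 at a mean of at least 2 FPKM, 922 rescaled to equal sums, 1202 with upper quartile scaling (68.6% of them higher, against 54%), 1262 with group means, 1055 with robust and 1473 with array-weighted fits. Without the filter there were 578 (346 higher, 232 lower), also 578 shared, over 26538 genes tested.

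The hair follicle and keratinocyte level as a covariate gave 401 (260 higher, 141 lower, all shared). The erythroid level gave 198 (111 and 87), 195 shared (109 and 86). The muscle level, added after seeing the data, gave 102 (55 and 47, all shared). Leaving out the 3 hair-rich tumours gave 380 (234 and 146), 379 shared (234 and 145). Without the cryoablation tumours there were 0, higher and lower, with 2056 at an unadjusted p under 0.05 in limma; without the radiofrequency tumours 259 (107 and 152, all shared). Of 24 genes of smallest p all passed with the hair level, with the erythroid level and without the hair-rich tumours, and 22 with the muscle level.

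The replicate numbers do not pair the tumours by any label, and of 9 same-numbered pairs 2 had a correlation over 0.1 (-0.44 to 0.20), with 2 best with their own number. With a replicate block 720 genes passed, 366 of them higher, all 366 shared.

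The count differing among ablations, 3, was 1 with a pseudocount of 0.1, at a mean of at least 2 FPKM, without the hair-rich or the cryoablation tumours, 10 rescaled, 2232 with array weights, 5 with the hair level and 19 without the radiofrequency tumours. It was 0 with the replicate block, erythroid or muscle level or without the cryo-thermal tumours. Leaving out each tumour in turn gave 555 to 1665 calls (300 to 824 higher, 255 to 841 lower), 536 to 1640 shared (288 to 808 and 248 to 832), 0 to 24 differing among ablations, and 0 to 895, 0 to 10 and 2 to 80 within cryoablation, radiofrequency ablation and cryo-thermal therapy. Within an ablation this was added after seeing the data. Ccl5, at -0.17, turned to 0.00926 with the hair level and 0.10 without the cryoablation tumours, and ranged from -0.27 to 0.0323 with each tumour left out, the highest being without cryoablation replicate 1.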
